A study of Homo sapiens with 4 samples.

Results

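Peaks of ZHX2 ChIP-seq at genes of the smaller zinc-finger families were described in a lymphoma line. The genes were the protein-coding genes in the deposited peak annotation whose names combine a number with ZBTB, ZSCAN, ZKSCAN, ZFP, KLF, ZFHX, ZEB, ZMYM, ZMYND, IKZF, EGR or SP. The name pattern took in 68 of 8871 listed peaks, at 58 of the 7640 genes to which a peak was annotated. The pattern uses gene names and not the signal, but the members were chosen with earlier results of these data known. The ChIP libraries were made with an antibody to ZHX2, which carries zinc fingers and homeoboxes, from formaldehyde-fixed DB cells, an established line of diffuse large B-cell lymphoma. Cells labelled ZHX2_Mut4, here Mut4, were set against cells labelled ZHX2, with 1 ChIP and 1 input library per arm. The labels do not describe the altered residues of Mut4, how either form was introduced, or whether cells of both arms also kept their own ZHX2. A peak list shows no expression, so the B-cell label of the line could not be checked against marker genes.

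Zinc-finger transcription factors read DNA through small folds held by zinc, and they make up a large class of human regulators. KLF and SP proteins bind GC-rich boxes at promoters, EGR proteins are immediate early factors induced by growth and antigen signals, and IKZF proteins direct lymphocyte development. ZBTB proteins join zinc fingers to a BTB domain that recruits corepressors, while ZEB proteins repress through E-boxes. Not every gene the names take in is a factor of this kind. The ZFP36 proteins bind AU-rich elements of mRNA and speed its decay, the MYND fingers of ZMYND proteins bind other proteins, and ZBTB8OS (archease, of the tRNA ligase complex) is named only for its neighbour ZBTB8.

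With a single ChIP library in each arm there was no replicate check, so no test between Mut4 and ZHX2 is given. Whole reads per library were recovered from the deposited values, and peak positions are on hg38 as deposited. They summed to 271694 in Mut4 and 541900 in ZHX2 over all listed peaks, and to 2216 in Mut4 and 5256 in ZHX2 over the 68 zinc-finger family peaks. A fold is the ratio of reads, Mut4 over ZHX2, after the authors' scaling to reads in listed peaks. The ranges in parentheses after folds and shares are exact 95% Clopper-Pearson intervals, which cover counting error only. The authors' scaling removes any loss shared by most peaks, and with reads left unscaled every log2 fold is lower by 1.10.

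The promoter windows below, from RefSeq, are given as description, and no fold rests on their sequence. They belong to genes whose annotated start lay in a listed peak and whose fold stood apart from 1 by its counting interval. Those with the lowest folds in Mut4 are followed by those with the highest. Where a gene had several starts in the peak, the window whose start lay nearest the peak centre is shown. Each runs from 250 bases before to 50 bases after a RefSeq transcription start on GRCh38.p14, 5′ to 3′ on the strand of the gene. Capitals mark GGGCGG, the GC box that SP and KLF proteins bind, and CCAAT, the box of the NF-Y factor to which ZHX proteins are known to bind, each on either strand. The windows are chr13:19958477-19958776 (plus strand) for ZMYM2, chr20:63831215-63831514 (minus strand) for ZBTB46, chr2:173963831-173964130 (minus strand) for SP3 and chr21:42010311-42010610 (minus strand) for ZBTB21. Those of the genes with higher folds are chr19:58519761-58520060 (minus strand) for ZBTB45, chr20:47356650-47356949 (minus strand) for ZMYND8, chr7:50308450-50308749 (plus strand) for IKZF1 and chr19:37655416-37655715 (minus strand) for ZFP30.
ZMYM2: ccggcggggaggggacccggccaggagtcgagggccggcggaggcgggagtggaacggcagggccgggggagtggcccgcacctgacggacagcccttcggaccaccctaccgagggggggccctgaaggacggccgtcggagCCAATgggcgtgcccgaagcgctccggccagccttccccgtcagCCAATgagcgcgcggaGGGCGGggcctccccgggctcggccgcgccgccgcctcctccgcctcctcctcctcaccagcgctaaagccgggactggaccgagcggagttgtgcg
ZBTB46: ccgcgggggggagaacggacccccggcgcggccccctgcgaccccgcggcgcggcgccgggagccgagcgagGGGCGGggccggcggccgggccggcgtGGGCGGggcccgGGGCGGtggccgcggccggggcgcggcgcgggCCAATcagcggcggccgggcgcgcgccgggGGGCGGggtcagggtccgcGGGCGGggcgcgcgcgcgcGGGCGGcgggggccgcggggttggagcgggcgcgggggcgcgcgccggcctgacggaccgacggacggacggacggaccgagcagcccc
SP3: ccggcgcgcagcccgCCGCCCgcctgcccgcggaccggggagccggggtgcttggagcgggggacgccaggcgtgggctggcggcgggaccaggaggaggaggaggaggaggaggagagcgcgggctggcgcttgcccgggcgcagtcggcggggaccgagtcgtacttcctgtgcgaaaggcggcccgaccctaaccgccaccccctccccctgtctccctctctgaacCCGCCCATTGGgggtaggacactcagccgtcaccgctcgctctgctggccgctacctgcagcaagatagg
ZBTB21: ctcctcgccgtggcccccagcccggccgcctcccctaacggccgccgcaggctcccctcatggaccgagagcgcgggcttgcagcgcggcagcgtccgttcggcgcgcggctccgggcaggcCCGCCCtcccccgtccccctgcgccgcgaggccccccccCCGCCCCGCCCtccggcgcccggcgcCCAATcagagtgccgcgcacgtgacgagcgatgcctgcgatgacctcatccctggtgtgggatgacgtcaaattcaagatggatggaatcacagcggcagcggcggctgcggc
ZBTB45: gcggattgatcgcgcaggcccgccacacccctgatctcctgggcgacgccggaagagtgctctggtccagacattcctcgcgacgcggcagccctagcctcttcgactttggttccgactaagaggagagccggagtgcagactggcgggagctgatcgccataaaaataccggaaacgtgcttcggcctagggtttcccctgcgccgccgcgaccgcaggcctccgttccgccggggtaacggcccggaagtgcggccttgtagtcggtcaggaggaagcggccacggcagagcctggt
ZMYND8: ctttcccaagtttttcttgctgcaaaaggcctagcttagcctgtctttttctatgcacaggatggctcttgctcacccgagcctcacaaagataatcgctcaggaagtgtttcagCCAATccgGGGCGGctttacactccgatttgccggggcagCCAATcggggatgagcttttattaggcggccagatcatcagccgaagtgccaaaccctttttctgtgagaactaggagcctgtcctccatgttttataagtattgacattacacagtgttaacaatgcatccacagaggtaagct
IKZF1: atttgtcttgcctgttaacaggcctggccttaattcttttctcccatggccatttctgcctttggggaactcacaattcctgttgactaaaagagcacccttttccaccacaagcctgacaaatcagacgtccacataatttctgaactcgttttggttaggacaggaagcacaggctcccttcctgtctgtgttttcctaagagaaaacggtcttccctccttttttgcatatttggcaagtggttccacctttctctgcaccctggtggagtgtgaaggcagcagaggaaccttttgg
ZFP30: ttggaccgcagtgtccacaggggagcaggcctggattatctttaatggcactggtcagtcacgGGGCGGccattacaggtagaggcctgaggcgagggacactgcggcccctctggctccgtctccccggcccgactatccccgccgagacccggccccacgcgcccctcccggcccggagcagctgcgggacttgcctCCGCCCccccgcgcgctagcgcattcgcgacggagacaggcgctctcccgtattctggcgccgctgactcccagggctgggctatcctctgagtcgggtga

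As shown, the windows of ZMYM2, ZBTB46, SP3 and ZBTB21 held 1, 6, 2 and 3 GC boxes, and CCAAT boxes as well, while those of ZBTB45 and IKZF1 held neither, ZFP30 had 2 GC boxes, and ZMYND8 had 1 GC box and 2 CCAAT boxes. The choice of start decides some of these counts. ZMYM2 had 2 more windows in the same peak, both with 0 boxes of either kind, ZBTB45 had another with 1 GC box, and ZFP30 another with 0. The window at the upstream start of IKZF1, in its neighbouring peak, had 5 GC boxes. The 8 windows were picked for their folds, and no difference between genes with low and high folds is read from them. Windows were available for 49 of the 58 genes, and 57 windows of 38 genes had their start in a listed peak of the gene. Of those 57, 75.4% held GGGCGG and 29.8% held CCAAT. The shares were 77.2% and 32.1% among 4467 windows of all coding genes with a start in a listed peak, and 56.3% and 34.7% among all 22199 coding windows. CCACC, a shorter KLF box, was in 66.7% of the 57 and 70.9% of the 4467 windows. The EGR box GCGTGGGCG, which can overlap GGGCGG, was in 1 of the 57 (ZBTB46) and in 1.97% of the 4467. Split by the direction of the peak, CCAAT was in 9 of 32 windows under peaks lower in Mut4 and in 8 of 25 under peaks higher in Mut4. These shares are descriptions, and no difference between them was tested.

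Listed peaks were unevenly spread over the families. Of 148 coding genes with such names in RefSeq 58 had a listed peak, 39.2% (31.3 to 47.5), against 28.6% of all 20056 coding genes. EGR (4 of 4), ZEB (2 of 2) and IKZF (4 of 5) were nearly complete, and IKZF4 was the IKZF gene with no listed peak. KLF had 9 of 18 genes listed, ZBTB 20 of 42, ZFP 9 of 21, ZMYM 3 of 6, ZMYND 3 of 6 and ZKSCAN 2 of 7. ZSCAN had 1 of 21 and SP 1 of 13, the SP count taking in SP100, SP110 and SP140, nuclear body proteins that only share the letters. SP1, the widely expressed GC-box factor, and the 3 ZFHX genes had no listed peak. A gene with no listed peak may still hold signal under the calling threshold, which the sources used here do not give.

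Most of the peaks sat at promoters. By annotation class 47 of 68 were promoter peaks, 69.1% (56.7 to 79.8), against 56.6% of all listed peaks and 63.8% of those at coding genes. Exons and introns held 7 each, intergenic sequence 5 and transcript ends 2. The centre of 55 peaks lay within 1000 bp of an annotated start, 80.9% (69.5 to 89.4), against 74.0% of all peaks and 83.3% of those at coding genes. The peaks were long, with a median of 1285 bp and a range of 620 to 4045 bp, against a median of 951 bp in the whole table. They were also strong. Of the 68, 49 stood at or above the median signal of all peaks, 72.1% (59.9 to 82.3), against 52.9% of peaks at coding genes. The median peak held 27 reads in Mut4 (range 6 to 79) and 62 in ZHX2 (range 23 to 287), against 22 in Mut4 and 45 in ZHX2 over all peaks with reads in both libraries.

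**Figure D1:**
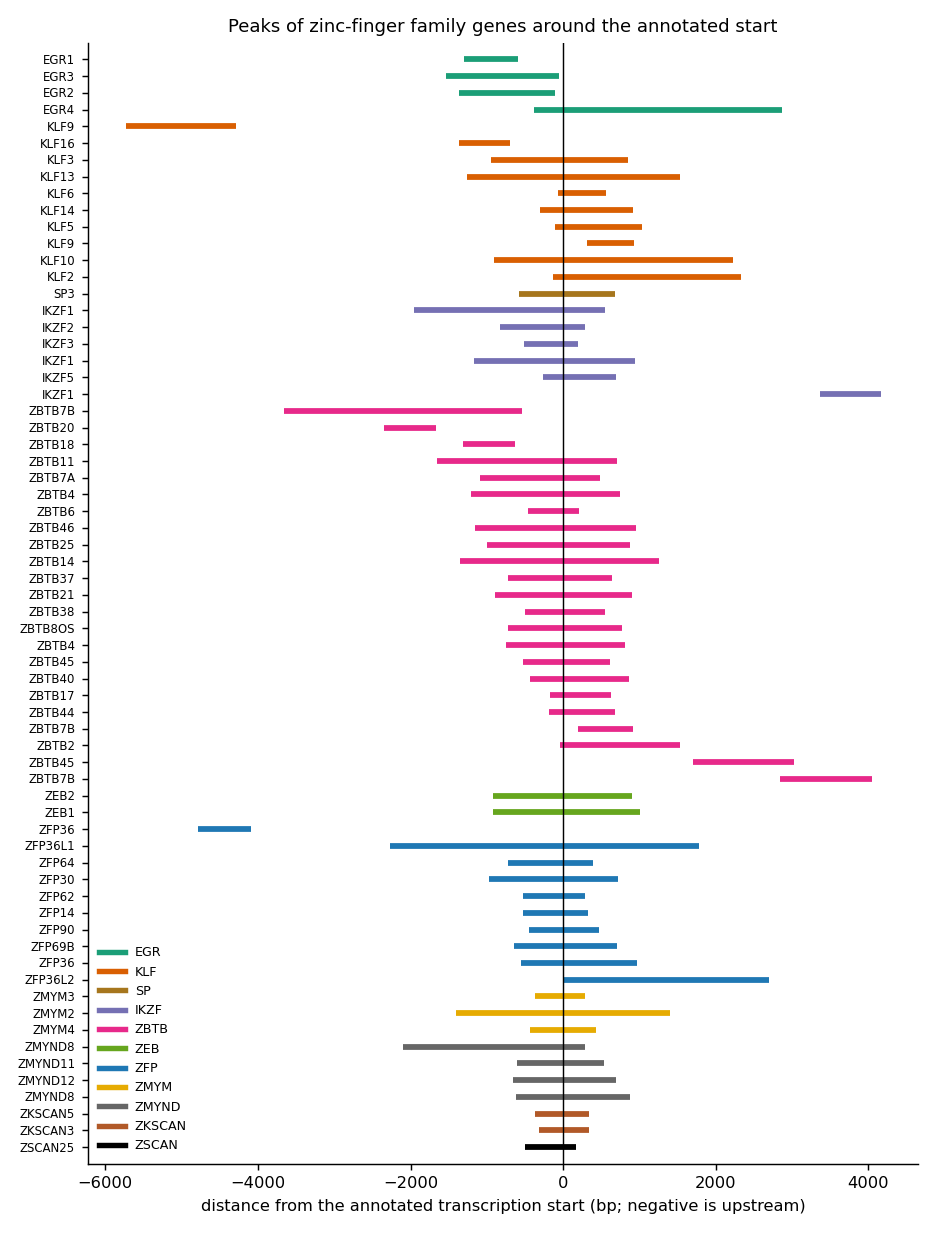
Each bar spans 1 listed peak of a zinc-finger family gene, placed by its length and by the distance of its centre from the annotated transcription start (x axis, bp), with genes down the page coloured by family. Peaks cross the start for most genes, those of EGR1, EGR2 and EGR3 lie upstream, and the 2 peaks farther than 5009 bp from a start, at ZBTB8B and ZFP36L1, are not drawn.

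Placement differed between genes. The peaks of EGR1, EGR2 and EGR3 were centred 947, 737 and 797 bp upstream of the start and did not reach it, while that of EGR4 was centred 1242 bp downstream, in the exon 2 of 2. The peaks of KLF2 (exon 2 of 3) and ZFP36L2 (exon 2 of 2) were likewise exonic, centred 1102 and 1346 bp downstream. Those of EGR4 and KLF2 were long enough to hold a RefSeq start of their own gene, and that of ZFP36L2 held none. The farthest peak was that of ZBTB8B, 35634 bp from its start with no RefSeq gene over it, so its assignment rests on the annotation alone. A start of another coding gene lay in the peaks of ZBTB4 (with POLR2A), ZBTB8OS (with RBBP4), ZBTB25 (with ZBTB1), ZMYND12 (with PPCS and CCDC30) and ZBTB11 (with an uncharacterised locus). At these 5 peaks the signal cannot be assigned to either gene. They were 7.35% of the 68, against 5.77% of all peaks and 7.38% of those at coding genes.

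Of the 68 peaks, 66 were marked in the deposited table as unique to ZHX2, 97.1%, close to the 95.5% of all listed peaks so marked. The other 2, at ZBTB21 and ZBTB40, were marked common. The mark did not mean that Mut4 lacked reads there, since each of the 68 peaks held at least 6 in Mut4. Input libraries were not analysed, so it is not known how many of those reads were background. All 68 held fewer reads in Mut4 than in ZHX2, as did 95.5% of all listed peaks. A list made mostly of peaks marked unique to ZHX2 favours reads in ZHX2, whose library also had more reads in listed peaks. No loss in Mut4 is read from this count. Under the authors' scaling 31 of the 66 peaks marked unique to ZHX2 were higher in Mut4, 47.0%, against 47.9% of all 8476 peaks so marked.

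**Figure D2:**
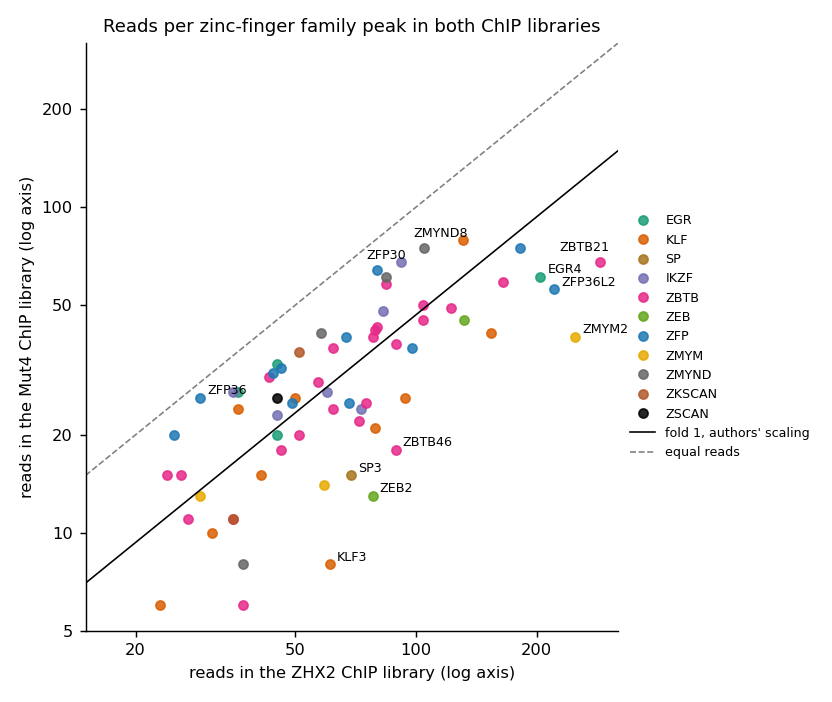
Each point is 1 peak, placed by its reads in the ZHX2 library (x axis) and in the Mut4 library (y axis), on log axes and coloured by family, with the solid line at a fold of 1 under the authors' scaling and the dashed line at equal reads. Every point lies under the dashed line, and ZMYM2, ZEB2, KLF3, SP3 and ZBTB46 lie well under the solid line.

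By the sign of the scaled fold 37 peaks were lower in Mut4 and 31 higher. The share lower was 54.4% (41.9 to 66.5), against 50.4% of all listed peaks, of which 49.6% were higher. The median log2 fold was -0.09 (quartiles -0.57 and 0.38), with extremes of -1.83 at KLF3 and 0.94 at the distal peak of ZFP36. Past 2-fold lay 7 peaks lower in Mut4, 10.3%, against 8.5% of all peaks, and 0 higher in Mut4, against 5.33%. No peak was past 4-fold in either direction, against 1.24% of all peaks lower and 2.07% higher in Mut4. The counting interval lay below 1 at 13 peaks, 19.1% (10.6 to 30.5) against 11.0%, and above 1 at 6, 8.82% (3.31 to 18.2) against 11.0%. Intervals narrow with more reads, and these peaks were stronger than most, but whether strength had a part in these shares was not tested. Among the 49 at or above the median signal, 11 intervals lay below 1 and 5 above. Over all 4432 such peaks with reads in both libraries, 585 lay below and 695 above. By the authors' deposited table, the peaks lower in Mut4 that passed the 0.05 level after adjustment were those of ZMYM2, ZBTB21, KLF3 and ZEB2. These 4 are 5.88% of the 68, against 2.53% of all peaks. Of those higher in Mut4, 0 passed it in the authors' deposited table, against 3.43%. Those p-values compare 2 libraries and not the conditions. For the sign and for the intervals in each direction, the share over all peaks lay inside the counting interval of the zinc-finger family share. For peaks past 2-fold higher in Mut4 it lay just outside, 5.33% against 0 of 68 (0 to 5.28%). Of the 6757 peaks at coding genes with reads in both libraries, 234 were past 2-fold higher in Mut4, a share inside that interval.

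**Figure D3:**
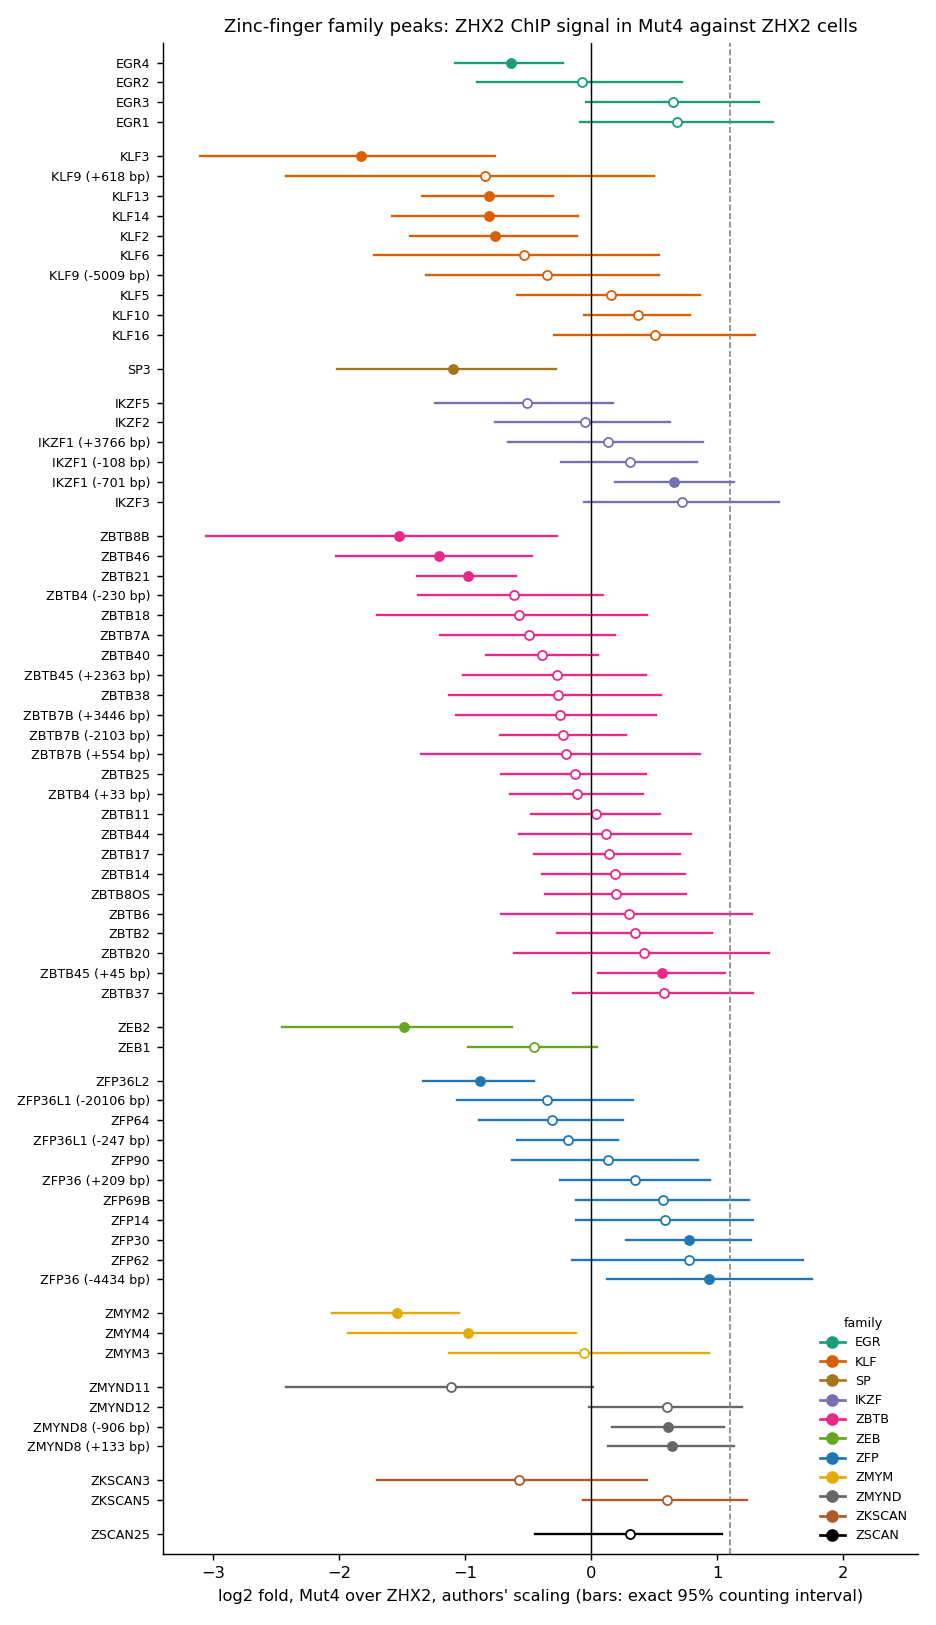
Each row is 1 peak, grouped by family and labelled with its distance from the start where a gene has several, and the x axis is the log2 fold, Mut4 over ZHX2, under the authors' scaling with its exact 95% counting interval. Filled points have intervals that exclude 0 on this scale, 13 below and 6 above, and the dashed line marks equal reads.

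The Krüppel-like and SP genes had 11 peaks at 10 genes, 8 lower and 3 higher in Mut4, where 50.4% of all peaks were lower. Their median log2 fold was -0.76, against -0.03 over all peaks at coding genes. KLF3 (ENSG00000109787), a repressor that recruits CtBP, had the lowest fold of all 68. Its promoter peak on chromosome 4, 38663253 to 38665050, held 8 reads in Mut4 and 61 in ZHX2, a fold of 0.281 (0.116 to 0.589). The authors' deposited table lists 0.0188 as its adjusted p. The few Mut4 reads make its interval wide. SP3, which shares the GC box with SP1, had 15 reads in Mut4 and 69 in ZHX2 at chromosome 2, 173963385 to 173964654, a fold of 0.466 (0.247 to 0.822). KLF13, a regulator of chemokine expression in T cells, had 41 reads in Mut4 and 154 in ZHX2 and a fold of 0.570 (0.394 to 0.809). KLF2, which keeps lymphocytes quiescent and guides their trafficking, had 26 in Mut4 and 94 in ZHX2, a fold of 0.592 (0.368 to 0.923). KLF14, a gene of 1 exon, had 21 in Mut4 and 79 in ZHX2, a fold of 0.569 (0.334 to 0.931). Intervals of the other 6 peaks included 1. Among them KLF10, a TGF-beta inducible factor, had the most reads, 79 in Mut4 and 131 in ZHX2, with a fold of 1.29 (0.964 to 1.72), and KLF5 and KLF16 were the other peaks with folds above 1, at 1.11 (0.665 to 1.82) and 1.43 (0.815 to 2.46). KLF6 stood at 0.691 (0.302 to 1.45), and the KLF9 peaks at 0.559 (0.186 to 1.41) in its exon 1 and 0.783 (0.403 to 1.45) 5009 bp upstream, over the transcript KLF9-DT.

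Among the EGR genes the peak of EGR4, centred in the gene body but also holding its start, was the strongest. EGR4 had 61 reads in Mut4 and 204 in ZHX2 over chromosome 2, 73290684 to 73293929, a fold of 0.640 (0.473 to 0.856). EGR1, the immediate early gene induced through the B-cell receptor, had 27 reads in Mut4 and 36 in ZHX2, a fold of 1.61 (0.938 to 2.72). EGR3 had 33 in Mut4 and 45 in ZHX2, a fold of 1.57 (0.971 to 2.52), and EGR2 had 20 in Mut4 and 45 in ZHX2, a fold of 0.952 (0.532 to 1.65). EGR2 and EGR3 restrain activated lymphocytes. Only the interval of the EGR4 peak excluded 1 under the authors' scaling, and no difference between EGR genes was tested.

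Exonic peaks had the lowest median fold of the annotation classes among these genes. Of 7 exonic peaks, at KLF2, KLF5, KLF6, KLF9, KLF14, EGR4 and ZFP36L2, 6 were lower in Mut4, with a median log2 fold of -0.76. Those of KLF2, KLF5, KLF6, KLF14 and EGR4 held a RefSeq start of their own gene, so the class does not separate them from promoter signal. Over all 840 exonic peaks with reads in both libraries 64.4% were lower, with a median of -0.25. The 47 promoter peaks divided evenly, 23 lower and 24 higher, with a median of 0.04 against -0.01 over all promoter peaks. The counts by peak length are given with no test. Of the 46 peaks at or above the median length of all peaks 29 were lower in Mut4 (63.0%), and of the 22 shorter ones 8 were (36.4%), against 53.7% and 47.0% over all peaks.

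The Ikaros family, which sets the course of B-cell and T-cell development, stood in both directions by gene. IKZF1 and IKZF3 were higher in Mut4, and IKZF2 and IKZF5 lower. Of 6 peaks at these 4 genes 2 were lower and 4 higher in Mut4, 3 of the 4 at IKZF1, with a median log2 fold of 0.22. Of all listed peaks 50.4% were lower. The difference of IKZF from other families was not tested. With unscaled reads all 6 IKZF peaks were lower, as were 95.5% of all listed peaks. IKZF1 (Ikaros) had 3 peaks on chromosome 7, all higher in Mut4 under the authors' scaling. The strongest, a promoter peak at 50306730 to 50309228, had 68 reads in Mut4 and 92 in ZHX2, a fold of 1.58 (1.14 to 2.19). The peak at the upstream start, 50302906 to 50305014, had 48 in Mut4 and 83 in ZHX2, a fold of 1.24 (0.849 to 1.79), and the intronic peak 23 in Mut4 and 45 in ZHX2, a fold of 1.09 (0.632 to 1.85). None of the other IKZF intervals excluded 1. IKZF3 (Aiolos), which like Ikaros is degraded under lenalidomide, had 27 reads in Mut4 and 35 in ZHX2, a fold of 1.65 (0.962 to 2.81). IKZF2 (Helios) had 27 in Mut4 and 60 in ZHX2, a fold of 0.964 (0.588 to 1.54), and IKZF5 (Pegasus) 24 in Mut4 and 73 in ZHX2, a fold of 0.704 (0.424 to 1.13). Chromosome 7 as a whole stood higher in Mut4, with 37.2% of its 635 peaks with reads in both libraries lower, and its part in the IKZF1 values was not tested.

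ZBTB genes were the largest family, with 24 peaks at 20 genes, 14 lower and 10 higher in Mut4, and a median log2 fold of -0.16. Of all listed peaks 50.4% were lower, and the difference was not tested. ZBTB21 (ENSG00000173276), a BTB repressor, had the strongest peak of all 68, marked common, on chromosome 21 at 42009427 to 42011225. It held 68 reads in Mut4 and 287 in ZHX2, a fold of 0.507 (0.384 to 0.663), and the authors' deposited table lists 0.0136 as its adjusted p. A peak marked as common to both arms was thus among the 13 with an interval below 1. ZBTB40, the other common peak, had 59 reads in Mut4 and 165 in ZHX2 and a fold of 0.766 (0.559 to 1.04). ZBTB46, known as a marker of classical dendritic cells, had 18 in Mut4 and 89 in ZHX2 at chromosome 20, 63830283 to 63832402, a fold of 0.433 (0.246 to 0.724). Its adjusted p, from the authors' deposited table, was 0.0611. The distal ZBTB8B peak had 6 in Mut4 and 37 in ZHX2, a fold of 0.347 (0.120 to 0.830).

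ZBTB45 carried peaks of opposite sign. Its promoter peak on chromosome 19, 58519142 to 58520271, had 58 reads in Mut4 and 84 in ZHX2, a fold of 1.48 (1.04 to 2.09), and was the ZBTB peak whose interval lay above 1. Its other peak, at a transcript end 2363 bp downstream, had 24 in Mut4 and 62 in ZHX2, a fold of 0.829 (0.495 to 1.35). The 3 peaks of ZBTB7B (ThPOK), which fixes the CD4 T-cell fate, had nearly equal folds, of 0.860 (0.604 to 1.21) upstream, 0.872 (0.391 to 1.82) in an intron and 0.840 (0.474 to 1.43) at a transcript end. Their log2 folds spanned 0.06, against 0.83 for the 2 peaks of ZBTB45.

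Besides ZBTB46 and ZBTB7B, 4 ZBTB genes were listed for a role in lymphocytes, and their intervals all included 1. ZBTB7A (LRF), which steers lymphoid progenitors to the B-cell fate, had 25 reads in Mut4 and 75 in ZHX2, a fold of 0.714 (0.435 to 1.14). ZBTB18, a repressor, had 11 in Mut4 and 35 in ZHX2, a fold of 0.673 (0.308 to 1.36). ZBTB17 (MIZ1), the partner through which MYC represses, had 40 in Mut4 and 78 in ZHX2, a fold of 1.10 (0.731 to 1.63). ZBTB20, which supports plasma cells, had 15 in Mut4 and 24 in ZHX2, a fold of 1.34 (0.653 to 2.66). The remaining ZBTB peaks had log2 folds between -0.61, at a promoter of ZBTB4, a reader of methylated DNA, and 0.58 at ZBTB37.

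Both ZEB genes, repressors best known from epithelial-mesenchymal transition, were lower in Mut4. The ZEB2 (ENSG00000169554) promoter peak on chromosome 2, 144515861 to 144517674, held 13 reads in Mut4 and 78 in ZHX2, a fold of 0.357 (0.182 to 0.646), and the authors' deposited table lists 0.0320 as its adjusted p. ZEB1 had more reads in either arm, 45 in Mut4 and 132 in ZHX2, and a fold of 0.730 (0.508 to 1.03), whose interval reached 1. The 5 zinc-finger family peaks on chromosome 2, at ZEB2, SP3, IKZF2, EGR4 and ZFP36L2, were all lower in Mut4. Over the 581 chromosome 2 peaks with reads in both libraries 57.5% were lower, with a median log2 fold of -0.09. The 5 on chromosome 10, at ZEB1, EGR2, IKZF5, KLF6 and ZMYND11, were all lower too, against 52.1% of 315. Chromosome 1, with 12 of the zinc-finger family peaks, had 7 lower and 5 higher, where 50.4% of all listed peaks were lower. The part of any chromosome in the values was not tested.

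Among the MYM-type genes ZMYM2 stood out. Its protein joins the LSD1, CoREST and HDAC corepressor complex. The ZMYM2 (ENSG00000121741) peak on chromosome 13, 19957267 to 19960071, spanned the start and covered the whole window shown above. It held 40 reads in Mut4 and 249 in ZHX2, a fold of 0.344 (0.240 to 0.482). The authors' deposited table lists 4.85e-05 as its adjusted p, the lowest among the 68. ZMYM4 had 14 in Mut4 and 59 in ZHX2, a fold of 0.508 (0.262 to 0.921), and ZMYM3 had 13 in Mut4 and 29 in ZHX2, a fold of 0.960 (0.458 to 1.91). All 3 folds were below 1, where 50.4% of all listed peaks were lower in Mut4.

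The MYND-type genes stood in both directions under the authors' scaling. With unscaled reads all 4 of their peaks were lower, as were 95.5% of all listed peaks. ZMYND8, which binds modified histones and the NuRD complex, had 2 promoter peaks on chromosome 20 with nearly equal folds. The peak at 47350996 to 47352492 had 61 reads in Mut4 and 84 in ZHX2, a fold of 1.56 (1.10 to 2.19), and that at 47356602 to 47358989 had 75 in Mut4 and 105 in ZHX2, a fold of 1.53 (1.12 to 2.08). ZMYND11, a reader of methylated histone H3.3, had 8 in Mut4 and 37 in ZHX2, a fold of 0.463 (0.186 to 1.01). ZMYND12 stood at 1.51 (0.989 to 2.30), in the promoter it shares with PPCS and CCDC30.

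The ZFP names held mRNA-decay factors and classical zinc-finger genes, which are given apart. Of the ZFP36 family, ZFP36L2 had a peak among the 3 strongest of the 68, with 56 reads in Mut4 and 221 in ZHX2 on chromosome 2 at 43223907 to 43226613, a fold of 0.543 (0.397 to 0.730). The authors' deposited table lists 0.05001 as its adjusted p, just short of the 0.05 level. ZFP36L1, the longest peak at 4045 bp, had 75 in Mut4 and 182 in ZHX2 at its promoter, a fold of 0.882 (0.665 to 1.16), and its peak 20106 bp upstream had a fold of 0.787 (0.477 to 1.26). ZFP36 (tristetraprolin) was higher in Mut4 at both its peaks, and lower at both with unscaled reads. The intergenic peak 4434 bp upstream, on chromosome 19 at 39402068 to 39402758, had 26 reads in Mut4 and 29 in ZHX2, a fold of 1.92 (1.09 to 3.38), the highest of the 68, and the promoter peak 40 in Mut4 and 67 in ZHX2, a fold of 1.28 (0.842 to 1.92).

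Of the 6 other ZFP peaks 5 were higher in Mut4, with a median log2 fold of 0.58. With unscaled reads all 6 of these were lower, as were 95.5% of all listed peaks. ZFP30, a KRAB zinc-finger gene on chromosome 19 at 37654750 to 37656439, had 64 reads in Mut4 and 80 in ZHX2, a fold of 1.71 (1.21 to 2.41). ZFP62 had 20 in Mut4 and 25 in ZHX2, a fold of 1.71 (0.902 to 3.21), and ZFP14, ZFP69B and ZFP90 had folds of 1.51 (0.921 to 2.44), 1.49 (0.918 to 2.39) and 1.09 (0.647 to 1.80). ZFP64 alone was lower, at 0.808 (0.538 to 1.19). Of 224 peaks at ZNF genes 141 were higher in Mut4, with a median of 0.13, where 49.6% of all peaks were higher. Of the 9 zinc-finger family peaks on chromosome 19, 6 were higher in Mut4, as were 514 of the 855 peaks of that chromosome with reads in both libraries. Whether chromosome 19 as a whole had a part in them was not tested. The SCAN-domain genes gave no common direction, with ZKSCAN5 at 1.51 (0.958 to 2.36), ZSCAN25 at 1.24 (0.733 to 2.05) and ZKSCAN3 at 0.673 (0.308 to 1.36).

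The direction of many of these peaks rested on the scaling. All 68 were lower in Mut4 when reads were left unscaled or scaled to 52 peaks on unplaced contigs that were marked in ZHX2, and 53 were lower without the strongest of those contig peaks. The corresponding shares of all listed peaks lower in Mut4 were 95.5%, 93.9% and 81.9%. As the list holds mostly peaks marked unique to ZHX2, no loss is read from these counts. The interval lay below 1 at 52 peaks unscaled, at 48 scaled to the contig peaks and at 30 without the strongest, against 71.1%, 61.7% and 34.2% of all peaks. It lay above 1 at 0 of the 68 under each of these 3, against 2.18%, 2.33% and 3.39% of all peaks. Past 2-fold lower in Mut4 lay 38, 36 and 21 of the 68, against 58.0%, 46.6% and 23.7% of all peaks. Each of these scalings moves every fold downwards by the same factor, so an interval below 1 under the authors' scaling cannot be lost under them, and keeping it is no sign of stability. The 13 such peaks were those of EGR4, KLF2, KLF3, KLF13, KLF14, SP3, ZBTB8B, ZBTB21, ZBTB46, ZEB2, ZFP36L2, ZMYM2 and ZMYM4. The 6 with intervals above 1, at IKZF1, ZBTB45, ZFP30, ZFP36 and both ZMYND8 peaks, turned to folds below 1 with unscaled reads, and were called higher under the authors' scaling and its near equal, centring on the median, alone.

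**Figure D4:**
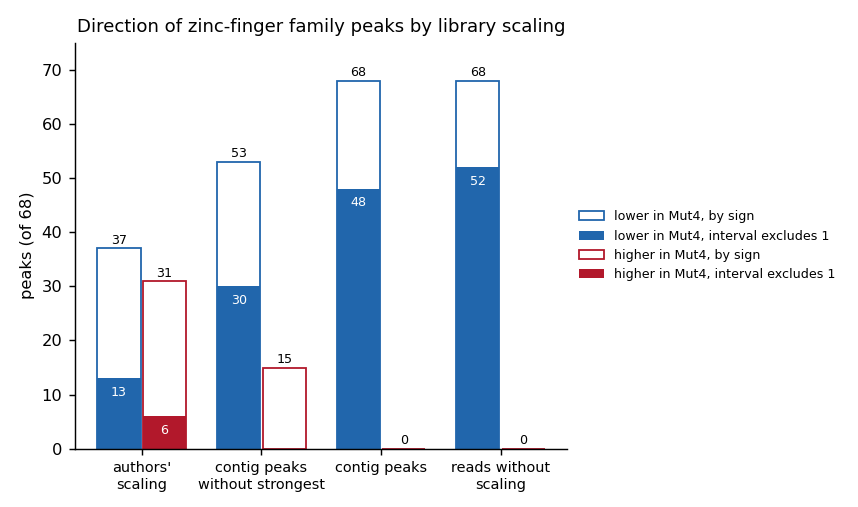
Bars give the number of the 68 peaks lower (blue) and higher (red) in Mut4 by the sign of the fold (outlined) and with a counting interval that excludes 1 (filled), for each way of scaling the libraries on the x axis. The lower peaks number 37, 53, 68 and 68 from left to right, and the filled red bar, 6 peaks, appears under the authors' scaling only.

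Cofactors through which these families act were listed by name and compared by the peak nearest a transcription start. This list and those that follow were chosen with earlier results of these data known. No difference between a list and all coding genes was tested. Of 37 cofactors 25 had a listed peak, 18 lower and 7 higher in Mut4, with a median log2 fold of -0.39. Over the nearest peaks of all 5884 coding genes the median was -0.04, and 3108 were lower. The interval lay below 1 at 8 of the 25 cofactors, where 11.7% of coding genes had such a peak, and above 1 at 2, where 9.48% had. BCOR, the BCL6 corepressor, had 6 reads in Mut4 and 56 in ZHX2, a fold of 0.229 (0.0808 to 0.531), and was the cofactor past the 0.05 level in the authors' deposited table, with 0.00831 after adjustment. At that level 2.67% of coding genes were lower in Mut4 and 1.68% higher, the cofactors holding 1 lower and 0 higher. MTA1, a NuRD subunit, had 8 in Mut4 and 46 in ZHX2, a fold of 0.372 (0.152 to 0.797). GATAD2B, also of NuRD, had 40 in Mut4 and 45 in ZHX2, a fold of 1.90 (1.21 to 2.98), and SETDB1, the H3K9 methyltransferase that KRAB zinc-finger proteins recruit, 50 in Mut4 and 70 in ZHX2, a fold of 1.53 (1.04 to 2.23). With unscaled reads all 25 cofactors were lower in Mut4, as were the nearest peaks of 5741 of the 5884 coding genes. The intervals of GATAD2B and SETDB1 lay above 1 under neither contig scaling nor unscaled reads.

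Zinc-finger factors whose names fall outside the families were listed in the same way. Of 22, 13 had a peak, 8 lower and 5 higher in Mut4, with a median log2 fold of -0.15, against -0.04 over coding genes. By the nearest peak 3108 of the 5884 coding genes were lower. With unscaled reads all 13 were lower, as were 5741 of the 5884. The interval lay below 1 at 3 of the 13, against 11.7% of coding genes, and above 1 at 1, against 9.48%. YY1, a ubiquitous factor of promoters and enhancer loops, had 78 reads in Mut4 and 307 in ZHX2, a fold of 0.544 (0.419 to 0.70), and the authors' deposited table lists 0.0280 as its adjusted p. HIC2 had 3 in Mut4 and 25 in ZHX2, a fold of 0.257 (0.0497 to 0.842). GZF1, marked common, was the factor whose interval lay above 1, with 80 in Mut4 and 94 in ZHX2 and a fold of 1.82 (1.34 to 2.48), a call that was lost with unscaled reads and under both contig scalings. Of the 34 family genes listed for a role in lymphocytes 25 had a peak, 17 lower and 8 higher by the nearest peak, with a median of -0.45, where 3108 of the 5884 coding genes were lower. The interval lay below 1 at 8 of these 25, against 11.7% of coding genes, and above 1 at 1, that of ZMYND8, against 9.48%. These 25 are among the family genes already counted above, and their list too was chosen with earlier results known. With unscaled reads all 25 were lower in Mut4, as were the nearest peaks of 5741 of the 5884 coding genes. The nearest IKZF1 peak was that at its upstream start, whose interval included 1.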

How the data were processed

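The samples were grouped by their titles. The authors' deposited table of 8871 peaks gives for each peak a log2 fold, ZHX2 over Mut4, and a mean log2 CPM, with a p-value, an adjusted p-value, a length in bp and a signed distance to a transcription start (a score without fixed range), per the file headers. The submitters' processing notes name hg38, MACS2 2.2.6, BWA 0.7.17, deepTools 3.4.3, HOMER, Picard 2.22.2-0, Trim Galore 0.6.4, MultiQC 1.8 and FastQC 0.11.9 without roles. Which tool made the comparison the sources used here do not give. Positions are printed as the table has them, on hg38, since it does not say if a start is counted from 0 or from 1.

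Both deposited log2 values were solved for whole reads, with priors of 0.25 reads in the fold, a mean prior of 2 reads and a dispersion of 0.05 in the CPM. Whole reads gave both values back within 1e-09 at 8871 of 8871 peaks. The recovery was tested on simulated data. Scaled library sizes were the read totals times 0.965 for Mut4 and 1.04 for ZHX2. Folds here are Mut4 over ZHX2, the reverse of the deposited column. Total library depth is unknown, as the table holds reads in peaks alone. Without molecular identifiers, reads may include copies of 1 molecule. Input libraries were not analysed here. No column of values per sample was dropped (0).

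The members and gene lists were chosen with earlier results of these data known. Genes were named by rule: an interval that excludes 1, an adjusted p under 0.05, a mark other than unique to ZHX2, the 3 strongest, highest and lowest, 3 or more peaks, and the list of lymphocyte roles. A few others are given to complete a family and were chosen after their values were seen. Analyses used Python 3.11.15, numpy 2.4.6, pandas 2.3.3 and scipy 1.17.1.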

Additional observations from a re-analysis of the deposited data

How the results depend on the processing

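Read numbers limited these results, with a median of 27 reads per peak in Mut4, and the scaling moved them most. Against 37 peaks lower in Mut4 under the authors' scaling, 68 were lower with unscaled reads and 68 scaled to unplaced contigs. The median log2 fold, -0.09 as reported, was -1.19 and -1.04 there. Peaks more than 2-fold lower in Mut4, 7 as reported, numbered 38 unscaled, 36 scaled to the contigs, 21 without the strongest contig peak and 0 at 4-fold. Intervals below 1, 13 as reported, numbered 52, 48 and 30 under those 3 scalings, and intervals above 1, 6 as reported, numbered 0 under each and 3 at 99%. The promoter share of 69.1% was 80.9% when counted within 1000 bp of a start. With unscaled reads all 31 peaks higher in Mut4 had folds below 1, and of the 6 whose interval lay above 1 the folds were 0.739 at the IKZF1 promoter, 0.690 at ZBTB45, 0.80 at ZFP30, 0.897 at ZFP36, and 0.726 and 0.714 at ZMYND8. Of the other named peaks 31 moved outside their counting intervals, some of them across 1, and 5 did not. The shift is built into leaving out the scaling. Other choices of peaks and genes, including leaving out ZBTB8OS (chosen after seeing the data), left the median between -0.11 and 0.04, the value for promoters alone being the 1 above 0. Over promoter peaks alone the medians of ZBTB, ZFP, KLF, IKZF and EGR kept their direction, with EGR at 0.65 in place of 0.29 and KLF at -0.81 in place of -0.64. ZSCAN, ZKSCAN, ZEB, ZMYM, ZMYND and SP had promoter peaks only, so their medians could not change. No paired analysis was possible because each arm had 1 ChIP library.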
